A study of Homo sapiens with 40 samples.

Results

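The genes described here were GDF15 and 8 other genes of the TGF-beta family and its inhibitors, namely the ligands BMP4, TGFB1 and TGFB2, the inhibin beta chains INHBA and INHBB, and the inhibitors FST, BAMBI and SMAD7. They were chosen by name, from the probes annotated to them, and not by a threshold on their values. That choice was made with earlier results of these data known. Of these 9 genes, 8 had an annotated probe, with 10 probes in all, and INHBB was not analysed here. A gene was tested when its mean log2 intensity was above 5 in at least 1 group, which held for 6 of the 9 (GDF15, BMP4, TGFB2, FST, BAMBI and SMAD7) among 10608 genes of the array. INHBA and TGFB1 lay below that line in all 10 groups.

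The cells were A549, an established human lung carcinoma line that carries the glucocorticoid receptor. Each of 4 coregulators of that receptor was depleted with siRNA, namely CCAR2, ZNF282, CCAR1 and CoCoA (the product of CALCOCO1), with a nonspecific siRNA (siNS) as control. Cultures were then given 100 nM dexamethasone (dex), a synthetic glucocorticoid, or its solvent ethanol for 6 h. There were 6 arrays per treatment for siNS, 4 for each of siCCAR1, siCoCoA and siCCAR2, and 2 for siZNF282, whose titles carry "ZFP282 #1". All groups shared the transfection and the hormone-free medium before treatment, and how many siRNA sequences each target had is not given in the sources used here. Ethanol arrays are titled 0 h, but the protocol has ethanol given for as long as dex. Whether the arrays of a group came from separate cultures is not stated, so the p-values measure the spread between these arrays, which may be partly technical. The study asked how far each coregulator shapes the dex response of single genes.

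Ligands of the TGF-beta family are secreted dimers that bind paired type I and type II receptor kinases, which phosphorylate SMAD proteins that enter the nucleus and regulate genes. Secreted proteins such as follistatin (FST) hold ligands away from receptors, BAMBI is a membrane pseudoreceptor without a kinase, and SMAD7 blocks the receptors from inside the cell. GDF15 is a distant member of the family, a secreted stress cytokine that acts through the receptor GFRAL and its partner RET. Glucocorticoids act through a receptor that binds DNA at palindromic response elements or works through other bound factors, and can raise or lower transcription.

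The first 250 bases before the annotated start are shown for the 3 genes with the clearest patterns: GDF15 and FST, which fell together under dex, and BAMBI, which differed between siRNAs and had no called dex response. The sequences are RefSeq's, on the plus strand of GRCh38.p14, at chr19:18385908-18386157 for GDF15, chr5:53480379-53480628 for FST and chr10:28677271-28677520 for BAMBI. The capitals mark the TATA box in GDF15, an AP-1 site in FST and 3 copies of a BMP-responsive SMAD motif in BAMBI.
GDF15: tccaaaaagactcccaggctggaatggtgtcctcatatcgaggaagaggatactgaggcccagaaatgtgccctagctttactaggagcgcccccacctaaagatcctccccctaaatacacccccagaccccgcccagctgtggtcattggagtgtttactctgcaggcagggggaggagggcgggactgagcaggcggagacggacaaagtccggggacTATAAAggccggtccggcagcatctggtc
FST: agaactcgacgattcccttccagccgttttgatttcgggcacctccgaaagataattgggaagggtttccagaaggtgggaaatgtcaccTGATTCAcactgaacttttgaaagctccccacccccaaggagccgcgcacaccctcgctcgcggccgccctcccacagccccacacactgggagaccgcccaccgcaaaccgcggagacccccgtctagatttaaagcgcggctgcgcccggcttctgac
BAMBI: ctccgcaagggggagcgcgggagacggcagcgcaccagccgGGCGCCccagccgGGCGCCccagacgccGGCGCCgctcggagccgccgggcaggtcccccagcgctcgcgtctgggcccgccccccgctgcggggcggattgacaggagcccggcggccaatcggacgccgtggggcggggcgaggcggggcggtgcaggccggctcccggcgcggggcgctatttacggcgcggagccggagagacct

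In GDF15 the TATA box (TATAAA, both strands searched) began 29 bases before the start. The same letters were found in 10.7% of 35116 promoter windows of this length and in 4 of 13 windows of the 9 genes, with TGFB2 also at 29 bases. In FST the AP-1 site (TGANTCA, a palindrome) began 160 bases before the start, the 1 match in the 13 windows, against 6.57% of all windows. BAMBI held GGCGCC (a palindrome) at 209, 196 and 181 bases before the start. That motif was in 16.4% of all windows and in 3 of the 13. The full glucocorticoid response element (a palindrome) was in none of the 13 windows and in 0.0456% of all windows, and its half-site AGAACA, on either strand, was in none of the 13 and in 12.4% of all. A match describes these letters in this window, and the absence of one says nothing of binding elsewhere.

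The array values were log2 intensities already normalized by the authors, from 4.13 to 14.3, with array medians of 4.67 to 4.69. Precision is limited by how many arrays a group holds. Each target's own transcript was lower in its depleted cells, with 20.1% to 73.8% of the siNS level left. The weakest of these, CALCOCO1 in ethanol (adjusted p = 0.026), was no longer called when only the groups compared were fitted (adjusted p = 0.064) or without any 1 of 6 single arrays. ZNF282 in dex (adjusted p = 0.013) was no longer called without either of its siZNF282 arrays (highest adjusted p = 0.11). CCAR2 was lower in siCoCoA cells as well. Its difference from siNS was −0.96 ± 0.14 (adjusted p = 7.63e-06) under ethanol and −1.10 ± 0.14 (adjusted p = 4.06e-07) under dex. All 7 epithelial markers were tested. The defining leukocyte markers PTPRC, CD3E and LYZ, all 4 endothelial markers and the fibroblast markers COL1A2, COL3A1 and PDGFRB were below the line in all groups, while the leukocyte marker CD14 and the fibroblast markers COL1A1 and DCN were above it in at least 1 group (highest group means of 5.72 for COL1A1 and 5.06 for DCN). The mean of 12 interferon-stimulated genes per array ran from 5.57 to 7.88 over the siNS arrays of both treatments and from 7.95 to 12.7 over the depleted arrays. In such samples a change in RNA per cell and a change in the share of cells that hold it cannot be told apart.

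Under dex, GDF15, FST, TGFB2 and BMP4 fell and SMAD7 rose in siNS cells, while BAMBI stayed within the spread of its arrays. In siNS, siCCAR1 and siCoCoA cells 4 of the 6 tested genes were lower and 1 was higher, and in siCCAR2 and siZNF282 cells 3 were lower and none was higher. Over all genes tested, 16.3% were called in siNS cells (7.7% higher, 8.61% lower) and 7.68% in siCCAR1 cells (4.33% higher, 3.36% lower). The share was 9.93% for siCoCoA (5.36% higher, 4.56% lower), 9.72% for siCCAR2 (6.47% higher, 3.25% lower) and 6.19% for siZNF282 (3.9% higher, 2.29% lower). BMP4 passed the filter through its ethanol groups alone, so its fall adds nothing to that count. Without BMP4, 3 genes were lower for each of the 5 siRNAs. Each difference below is dex minus ethanol on the log2 scale ± SE, from limma's moderated test with Benjamini-Hochberg adjustment over the 10608 genes. Genes with an adjusted p under 0.05 count as called.

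GDF15 showed the largest fall of all genes tested in siNS, siCCAR1, siCoCoA and siCCAR2 cells, and ranked 2 in siZNF282 cells. In siNS cells its log2 intensity was 10.66 at the lowest, 11.05 at the median and 11.23 at the highest in ethanol. In dex it was 7.27, 7.83 and 8.82. Every dex array lay far below every ethanol array.

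Values of 4 or fewer arrays are given here from the lowest to the highest. In siCCAR1 cells GDF15 was at 10.42, 10.51, 10.60 and 11.09 in ethanol and at 7.79, 7.99, 8.29 and 8.33 in dex. In siCoCoA cells it was at 10.26, 10.87, 10.97 and 11.03 in ethanol and at 7.80, 8.05, 8.26 and 8.47 in dex. In siCCAR2 cells it was at 10.80, 11.05, 11.35 and 11.50 in ethanol and at 7.69, 8.07, 8.50 and 8.99 in dex. The siCCAR2 arrays thus held both the brightest ethanol array and the brightest dex array of the 40. In siZNF282 cells it was at 9.83 and 10.42 in ethanol, the first of these the lowest ethanol value of the 40 arrays, and at 7.42 and 8.08 in dex. Over the 40 arrays the 20 dex values (7.27 to 8.99) and the 20 ethanol values (9.83 to 11.5) did not overlap, a separation in this direction shared by 0.151% of the genes tested.

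The fall of GDF15 was −3.02 ± 0.22 in siNS cells (adjusted p = 1.79e-13), which is 8.09-fold, with 12.4% of the ethanol level left. For siCCAR1 it was −2.56 ± 0.27 (adjusted p = 4.52e-09), for siCoCoA −2.64 ± 0.27 (adjusted p = 2.11e-09) and for siCCAR2 −2.86 ± 0.27 (adjusted p = 2.54e-10). In siZNF282 cells it was −2.37 ± 0.38 (adjusted p = 4.16e-05), the smallest of the 5 in size. The mean over the 5 siRNAs was −2.69 ± 0.13, with a 95% interval of −2.95 to −2.43. None of the 4 depletions changed the size of the fall detectably, as given below.

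**Figure D1:**
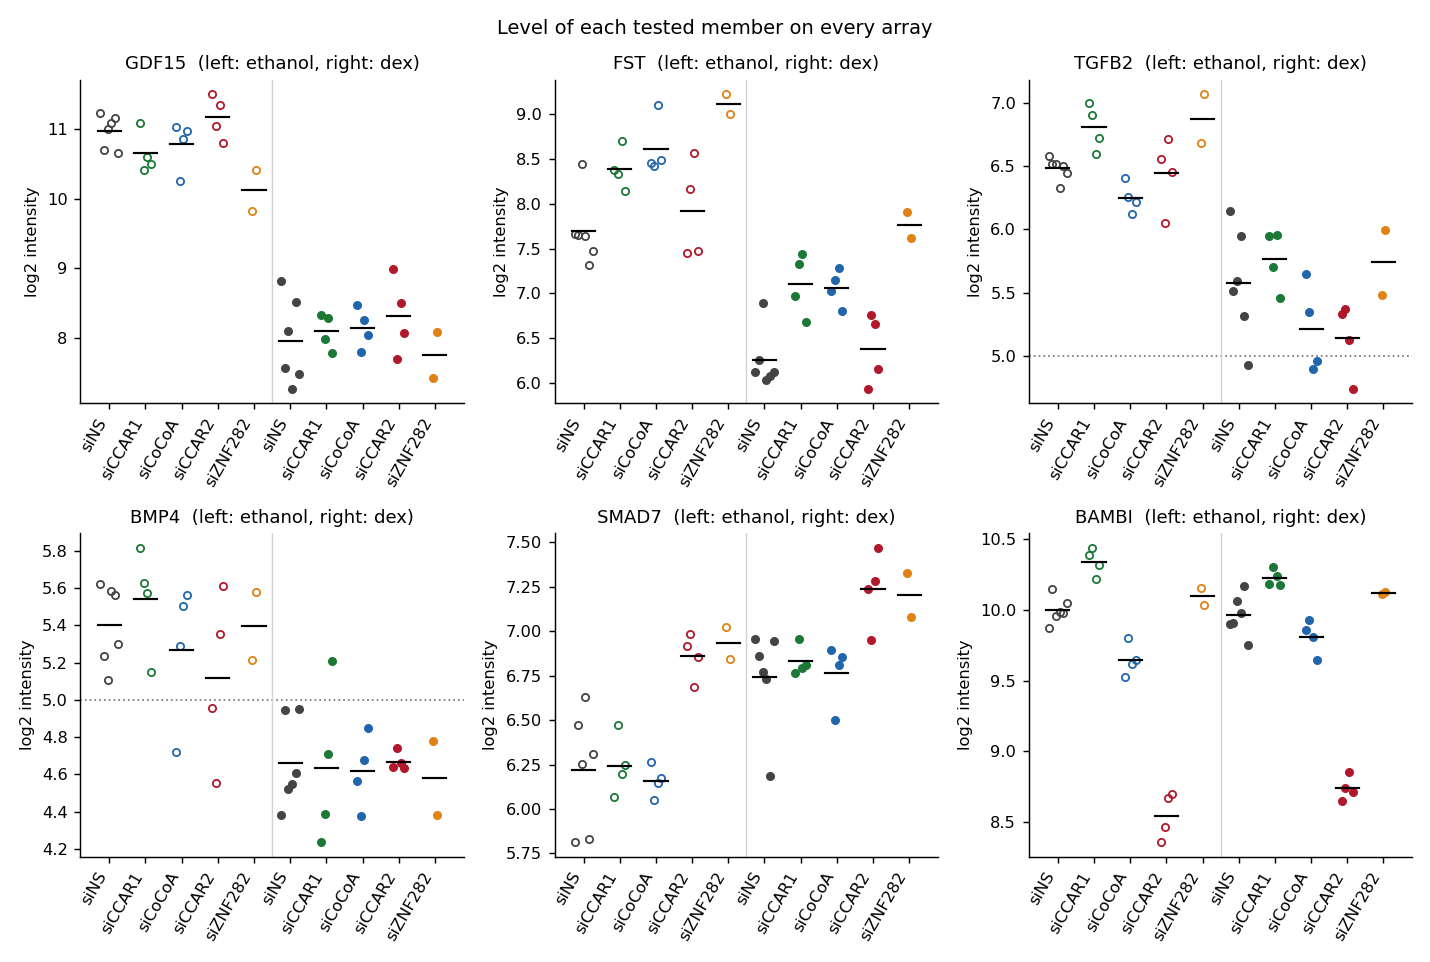
Log2 intensity (vertical axis) of the 6 tested genes on all 40 arrays, by siRNA, with ethanol as open circles on the left and dex as filled circles on the right of each panel; black bars are group means and the dotted line at 5, where a panel reaches it, is the filter. GDF15 separates into dex values of 7.27 to 8.99 and ethanol values of 9.83 to 11.5, while BAMBI is low in siCCAR2 cells on both sides.

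FST encodes follistatin, a secreted protein that binds activins and neutralizes them. In siNS cells it was at 7.32, 7.64 and 8.44 in ethanol (lowest, median and highest) and at 6.03, 6.13 and 6.89 in dex. The highest array was number 3 in each treatment, yet no dex array reached an ethanol array. In siCCAR1 cells it was at 8.14, 8.33, 8.38 and 8.70 in ethanol and at 6.68, 6.97, 7.33 and 7.44 in dex.

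In siCoCoA cells FST was at 8.43, 8.46, 8.49 and 9.10 in ethanol and at 6.80, 7.02, 7.15 and 7.29 in dex. In siCCAR2 cells it was at 7.45, 7.48, 8.17 and 8.57 in ethanol and at 5.94, 6.16, 6.66 and 6.75 in dex. In siZNF282 cells it was at 9.0 and 9.22 in ethanol and at 7.62 and 7.91 in dex, so that these dex arrays lay at the level of siNS ethanol arrays. Within each siRNA the FST dex arrays were below all ethanol arrays. Dex and ethanol arrays did not overlap for 9.07% of all genes in siNS cells, 15% in siCCAR1, 14.3% in siCoCoA, 11.3% in siCCAR2 and 42.4% in siZNF282 cells.

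FST changed by −1.45 ± 0.19 in siNS (adjusted p = 2.79e-07), by −1.28 ± 0.23 for siCCAR1 (adjusted p = 1.55e-04), by −1.55 ± 0.23 for siCoCoA (adjusted p = 6.73e-06) and by −1.54 ± 0.23 for siCCAR2 (adjusted p = 5.84e-06). In siZNF282 cells it changed by −1.35 ± 0.33 (adjusted p = 0.0079), a call lost without ethanol array 2 (adjusted p = 0.093) or dex array 3 (adjusted p = 0.098) of that group. The mean of the 5 responses was −1.43 ± 0.11, which left 37.0% of the ethanol level. A second, dimmer FST probe fell in all 5 as well, with differences of −0.86 to −0.61. Its dex means lay below the line in all groups but siZNF282, so these differences understate any fall below that line. For the other siRNAs it was above the line in ethanol alone, so its falls there add nothing to those of the brighter probe.

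TGFB2, a secreted ligand of the TGF-beta receptors, was lower under dex for all 5 siRNAs. In siNS cells it was at 6.32, 6.51 and 6.58 in ethanol (lowest, median and highest) and at 4.93, 5.55 and 6.15 in dex, so the dex arrays were spread far wider and still lay below all ethanol arrays. Its difference was −0.91 ± 0.16 in siNS (adjusted p = 3.01e-05), −1.04 ± 0.19 in siCCAR1 (adjusted p = 1.71e-04) and −1.04 ± 0.19 in siCoCoA cells (adjusted p = 1.56e-04). The difference was −1.30 ± 0.19 in siCCAR2 (adjusted p = 3.08e-06) and −1.13 ± 0.27 in siZNF282 cells (adjusted p = 0.0061). The siZNF282 call was lost without ethanol array 3 (adjusted p = 0.075) or dex array 2 (adjusted p = 0.16). GDF15, FST and TGFB2 were called lower for all 5 siRNAs, as were 0.754% of the genes tested. When only the siZNF282 groups were fitted, FST (adjusted p = 0.064) and TGFB2 (adjusted p = 0.16) lost the siZNF282 call.

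BMP4, a ligand of BMP receptors that patterns many tissues, lay near the line. Its ethanol means were 5.12 to 5.54 and its dex means 4.58 to 4.67, below the line in every dex group. In siNS cells it was at 5.11, 5.43 and 5.62 in ethanol and at 4.38, 4.58 and 4.95 in dex, with no overlap. The measured difference was −0.74 ± 0.16 in siNS (adjusted p = 0.0010), −0.91 ± 0.20 in siCCAR1 (adjusted p = 0.0020) and −0.65 ± 0.20 in siCoCoA cells (adjusted p = 0.031), the last of which was lost without any 1 of 6 arrays of siCoCoA (adjusted p of 0.055 to 0.12). In siCCAR2 cells it was −0.45 ± 0.20 (adjusted p = 0.19) and in siZNF282 cells −0.82 ± 0.29 (adjusted p = 0.087), and neither was called, though without siCCAR2 ethanol array 2 the former was (−0.64, adjusted p = 0.042). Against the line itself, ethanol was at least 1.32-fold higher than dex in siNS and at least 1.46-fold higher in siCCAR1 cells.

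SMAD7, the inhibitory SMAD that is itself a target gene of TGF-beta signalling, moved the other way. In siNS cells it was at 5.81, 6.28 and 6.63 in ethanol (lowest, median and highest) and at 6.18, 6.82 and 6.96 in dex, where 1 low dex array made the groups overlap. It rose by 0.52 ± 0.13 in siNS (adjusted p = 0.0023), 0.59 ± 0.15 in siCCAR1 (adjusted p = 0.0100) and 0.61 ± 0.15 in siCoCoA cells (adjusted p = 0.0063). In siCCAR2 cells the difference was 0.37 ± 0.15 (adjusted p = 0.14) and in siZNF282 cells 0.27 ± 0.22 (adjusted p = 0.58), both short of a call. Those 2 groups had the highest SMAD7 levels in ethanol. The dimmer SMAD7 probe gave 0.51 ± 0.18 in siNS cells (adjusted p = 0.043) and 0.12 ± 0.22 in siCoCoA cells (adjusted p = 0.85), and was called for siNS alone among the siRNAs.

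BAMBI, the pseudoreceptor, did not pass the test for any siRNA, with dex differences of −0.12 ± 0.09 to 0.19 ± 0.09 and a mean of 0.04 ± 0.04 (adjusted p = 0.48). The 95% interval of that mean, −0.05 to 0.14, bounds the average over the 5 siRNAs and not the response to dex under each. For single siRNAs the intervals were wider, from −0.31 to 0.07 in siCCAR1 and from 0.003 to 0.38 in siCCAR2 cells. INHBA, the activin A chain, had group means of 4.38 to 4.71, with 1 of 40 arrays above the line. TGFB1 had group means of 4.26 to 4.49 with no array above it. Neither probe gave a level that could be compared between groups.

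**Figure D2:**
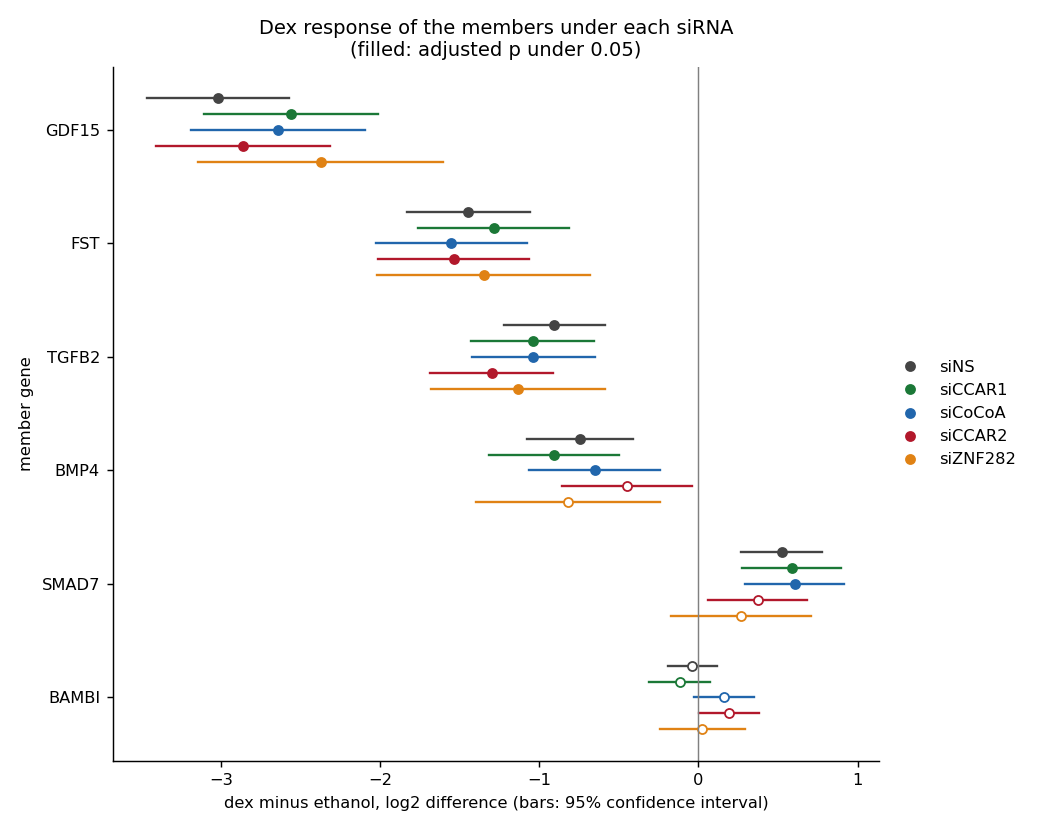
Dex minus ethanol (log2 difference, horizontal axis) of the 6 tested genes for each siRNA, with bars for 95% confidence intervals and filled points for an adjusted p under 0.05. GDF15 lies between −3.02 and −2.37 for all 5 siRNAs, FST and TGFB2 lie below 0 for all 5, and BAMBI lies near 0.

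The design also asks whether a depletion changed the dex response itself. For none of the 6 genes was a difference from the response in siNS cells called, in any of the 4 depletions (0 of 6 in each by limma, 0 at an unadjusted p under 0.05, smallest adjusted p = 0.72). Over all genes 11 differed for siCCAR1 (0.104%), 1 for siCoCoA (0.00943%), 9 for siCCAR2 (0.0848%) and 26 for siZNF282 (0.245%). With a fixed replicate block these were 19 for siCCAR1, 21 for siCCAR2 and 65 for siZNF282, and still none of the 6 genes. For GDF15 the difference from siNS was 0.46 ± 0.35 in siCCAR1 and 0.64 ± 0.44 in siZNF282 cells. In the fit without a replicate block its 95% interval was −0.25 to 1.16 for the former and −0.25 to 1.53 for the latter. Smaller responses of that order were thus not resolved in that fit, and intervals with a replicate block are not given here. The F-test over all 5 siRNAs called none of the 6 (smallest adjusted p = 0.78), against 0.311% of all genes.

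Levels of several of these genes differed between siRNAs, about as often as over all genes tested. An F-test over the 5 siRNAs in ethanol called FST (adjusted p = 1.01e-04), BAMBI (adjusted p = 3.60e-16) and SMAD7 (adjusted p = 7.27e-05), where 53.7% of all genes were called. In dex it called FST (adjusted p = 2.90e-05), BAMBI (adjusted p = 2.73e-14), SMAD7 (adjusted p = 0.0096) and TGFB2 (adjusted p = 0.013), where 55.6% of all genes were called. GDF15 (adjusted p = 0.056) and TGFB2 (adjusted p = 0.051) lay just past the threshold in ethanol, and BMP4 was at 0.37. Single depletions were then set against siNS, where 13.8% of genes were called for siCCAR1, 15.5% for siCoCoA, 16.2% for siCCAR2 and 31.6% for siZNF282 in ethanol, and 19%, 20.1%, 18.9% and 30.5% in dex.

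BAMBI was lower in siCCAR2 cells in both treatments. Its siNS arrays were at 9.87, 9.98 and 10.15 in ethanol and 9.75, 9.94 and 10.17 in dex (lowest, median and highest). The siCCAR2 arrays were at 8.36, 8.46, 8.67 and 8.70 in ethanol and at 8.65, 8.71, 8.74 and 8.85 in dex, all far below the lowest siNS array. The differences were −1.45 ± 0.09 in ethanol (adjusted p = 1.02e-14), or 36.6% of the siNS level, and −1.22 ± 0.09 in dex (adjusted p = 5.75e-13), or 42.9%. In ethanol it ranked 6 from the lowest of all genes tested. Of all genes, 5.13% were lower in siCCAR2 cells in both treatments.

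In siCoCoA cells BAMBI was at 9.53, 9.62, 9.65 and 9.80 in ethanol, all below the siNS arrays, and at 9.65, 9.81, 9.86 and 9.93 in dex, where the lowest array lay below the siNS range and the others within it. The difference was −0.35 ± 0.09 (adjusted p = 0.0036) under ethanol and −0.15 ± 0.09 (adjusted p = 0.22) under dex. CCAR2 itself was lower in siCoCoA cells, as given above, and its part in this was not tested. In siCCAR1 cells BAMBI was at 10.22, 10.32, 10.39 and 10.44 in ethanol and at 10.18, 10.18, 10.24 and 10.30 in dex, above all siNS arrays of the same treatment. It was higher by 0.34 ± 0.09 (adjusted p = 0.0053) under ethanol and 0.26 ± 0.09 (adjusted p = 0.028) under dex, the latter lost without siNS dex array 6 (adjusted p = 0.073), siCCAR1 dex array 2 (adjusted p = 0.089) or siCCAR1 dex array 3 (adjusted p = 0.061). In siZNF282 cells the differences were 0.10 ± 0.11 and 0.16 ± 0.11, neither called.

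FST was higher in siCCAR1, siCoCoA and siZNF282 cells in both treatments, on its brighter probe. In siZNF282 cells it was higher by 1.42 ± 0.27 (adjusted p = 1.04e-04) under ethanol and 1.51 ± 0.27 (adjusted p = 3.65e-05) under dex, or 2.67-fold and 2.85-fold. In siCoCoA cells it was higher by 0.92 ± 0.21 (adjusted p = 0.0023) under ethanol and 0.81 ± 0.21 (adjusted p = 0.0053) under dex. In siCCAR1 cells it was higher by 0.69 ± 0.21 (adjusted p = 0.025) under ethanol and 0.85 ± 0.21 (adjusted p = 0.0039) under dex, and the ethanol call was lost without any 1 of 5 arrays (siNS 5 or 6, siCCAR1 1, 2 or 3, adjusted p of 0.051 to 0.10). In siCCAR2 cells it differed by 0.22 ± 0.21 and 0.13 ± 0.21, neither called. Of all genes, 0.886% were higher in these 3 depletions in both treatments.

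The dimmer FST probe was also higher in siZNF282 cells, with 0.65 ± 0.19 (adjusted p = 0.010) under ethanol and 0.67 ± 0.19 (adjusted p = 0.0076) under dex. It did not show the rise in siCoCoA cells, where it differed by 0.04 ± 0.15 and 0.02 ± 0.15 (adjusted p = 0.92 and 0.96). In siCCAR1 cells it gave 0.35 ± 0.15 and 0.38 ± 0.15 (adjusted p = 0.14 and 0.084). The FST rise in siCoCoA cells therefore rested on 1 probe. The mean of the 12 interferon-stimulated genes per array in ethanol was 5.88 to 6.46 in siNS cells. It was 7.95 to 9.75 with siCCAR1, 10.2 to 11.1 with siCoCoA, 9.73 to 11.7 with siCCAR2 and 12.3 to 12.7 with siZNF282. Of the 12, 11 were called higher in siCCAR1 cells and all 12 in each of the other depletions, in both treatments, and their part in the rise of FST, and in the other depletion effects given here, was not tested.

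**Figure D3:**
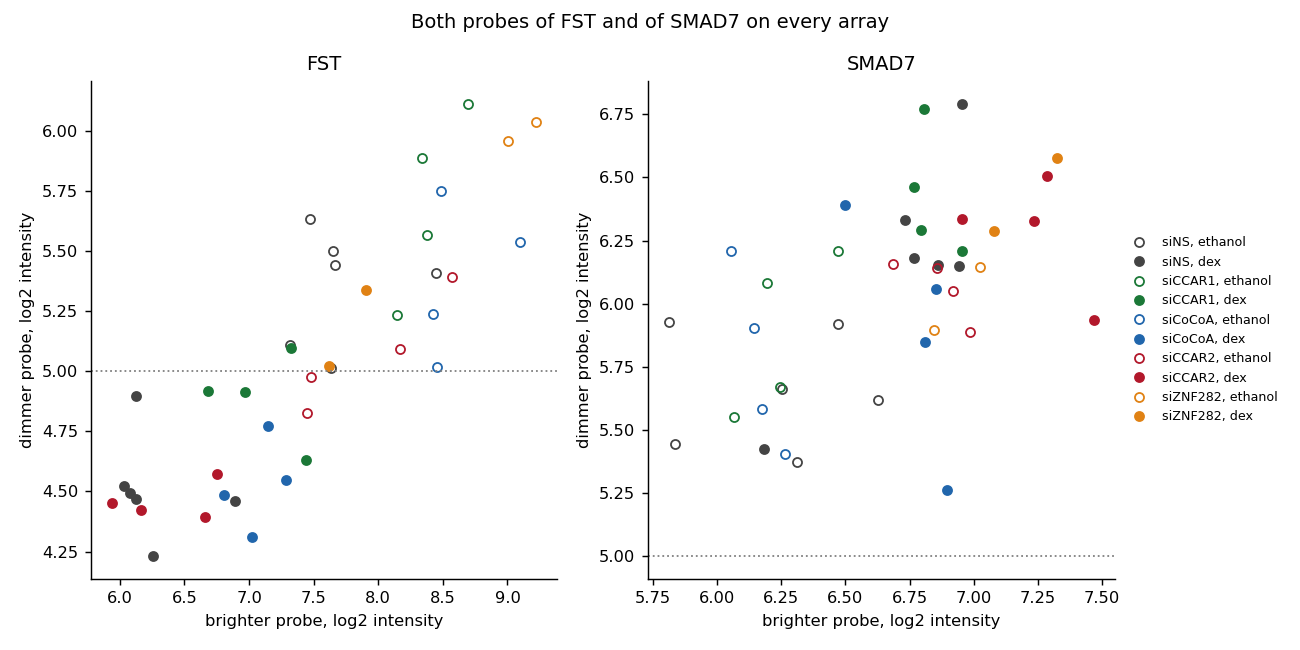
The brighter (horizontal axis) and dimmer (vertical axis) probe of FST and of SMAD7 on all 40 arrays, both in log2 intensity, with colours for siRNAs, open circles for ethanol and filled circles for dex; the dotted line at 5 is the filter. For FST the dimmer probe is below the line on most dex arrays and siCoCoA arrays lie to the right of siNS arrays at a similar height.

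SMAD7 was higher in siCCAR2 and siZNF282 cells. In ethanol it was at 6.68, 6.86, 6.92 and 6.99 in siCCAR2 and at 6.84 and 7.03 in siZNF282 cells, all above the highest siNS array of 6.63. In dex it was at 6.95, 7.24, 7.28 and 7.47 in siCCAR2 and at 7.08 and 7.33 in siZNF282 cells, where all but the lowest siCCAR2 array lay above the highest siNS array of 6.96. The rise in siCCAR2 cells was 0.64 ± 0.14 (adjusted p = 9.87e-04) under ethanol and 0.49 ± 0.14 (adjusted p = 0.010) under dex, the latter lost without siCCAR2 dex array 4 (adjusted p = 0.058).

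The rise in siZNF282 cells was 0.72 ± 0.18 in ethanol (adjusted p = 0.0019), lost without ethanol array 2 of that group (adjusted p = 0.071). In dex it was 0.46 ± 0.18 (adjusted p = 0.045), lost without any 1 of 5 arrays (siNS 3, 4 or 5, siZNF282 2 or 3, adjusted p of 0.052 to 0.36). The dimmer SMAD7 probe was not called for any depletion. Its largest depletion difference was 0.40 ± 0.20, in siCCAR2 cells in ethanol (adjusted p = 0.18). Of all genes, 2.66% were higher in siCCAR2 and siZNF282 cells in both treatments.

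GDF15 differed from siNS in 1 of the 8 depletion comparisons, being lower in siZNF282 cells in ethanol, with a difference of −0.85 ± 0.31 (adjusted p = 0.033), or 55.4% of the siNS level. That call was lost without siNS ethanol array 1 (adjusted p = 0.056), siNS ethanol array 5 (adjusted p = 0.053) or siZNF282 ethanol array 2 (adjusted p = 0.42), and the last of these moved the difference to −0.56. In dex the same comparison gave −0.21 ± 0.31 (adjusted p = 0.66). Without a replicate block TGFB2 and BMP4 were called in none of the 8. TGFB2 came nearest in siCCAR2 cells in dex, with −0.43 ± 0.17 (adjusted p = 0.079). Without siNS dex array 6 it was called lower there (−0.56, adjusted p = 0.014) and in siCoCoA cells in dex (−0.49, adjusted p = 0.032). Array numbers paired both of these groups with siNS in dex. With a fixed replicate block TGFB2 was called lower in siCCAR2 (−0.55, adjusted p = 0.010) and in siCoCoA cells (−0.48, adjusted p = 0.024). With a random block the number of the 6 genes called in siCoCoA cells in dex did not change.

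**Figure D4:**
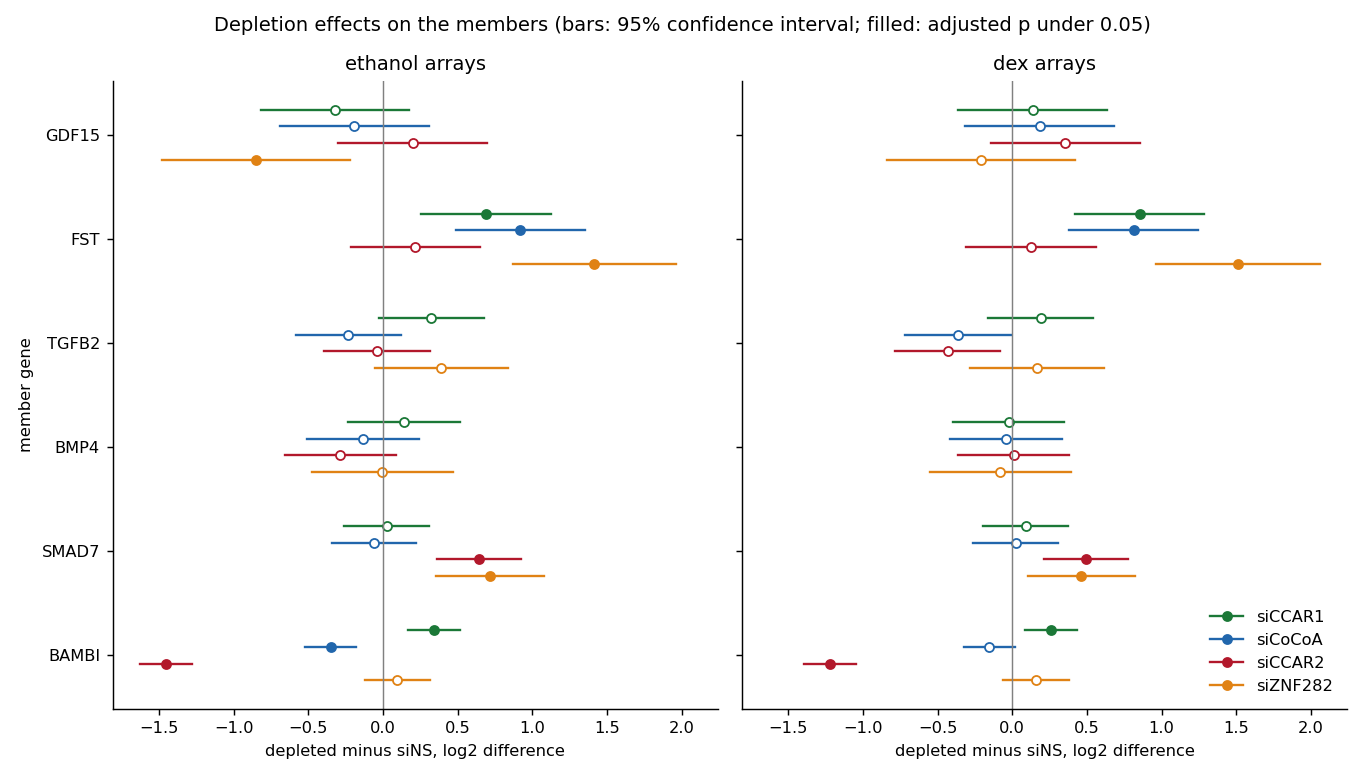
Depleted minus siNS cells (log2 difference, horizontal axis) for the 6 tested genes in ethanol (left) and dex (right), with bars for 95% confidence intervals and filled points for an adjusted p under 0.05. BAMBI in siCCAR2 cells lies at −1.45 and −1.22, and FST lies above 0 in siCCAR1, siCoCoA and siZNF282 cells.

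Ordered by group mean, GDF15 ran from 11.2 in siCCAR2 ethanol through siNS, siCoCoA, siCCAR1 and siZNF282 ethanol (10.1) to the 5 dex groups, from siCCAR2 (8.31) to siZNF282 (7.75). Neighbours overlapped in their arrays except siCCAR1 with siZNF282 in ethanol and siZNF282 ethanol with siCCAR2 dex. FST ran from 9.11 in siZNF282 ethanol to 6.25 in siNS dex, and the siZNF282 dex group (7.76) stood above siNS ethanol (7.70), with overlap. BAMBI ran from 10.3 in siCCAR1 ethanol to 8.55 in siCCAR2 ethanol, with no overlap between siCCAR1 dex and siZNF282 dex or between siCoCoA ethanol and siCCAR2 dex. SMAD7 ran from 7.24 in siCCAR2 dex to 6.16 in siCoCoA ethanol.

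The tested genes with a profile most like GDF15, by Pearson correlation of the 10 group means, were the endothelin precursor EDN1 (r = 0.98), the vitamin D hydroxylase CYP24A1 (r = 0.98), TRIML2 (r = 0.98), TRIP6 (r = 0.98) and PHIP (r = 0.97). All 5 were lower under dex in siNS cells, with differences from −0.44 (TRIP6) to −2.75 (TRIML2). For FST the nearest were SLMAP (r = 0.98) and BAZ2B (r = 0.96), for BAMBI SAYSD1 (r = 0.97) and TRAPPC13 (r = 0.96), and for SMAD7 FNDC3A and ASAP3 (both r = 0.96). For BMP4 they were EDN1 (r = 0.95) and PHLDA2 (r = 0.93), and for TGFB2 VPS37A and SEMA4G (both r = 0.95). Among the 6 genes themselves GDF15 was closest to BMP4 (r = 0.92) and BAMBI to none (r of −0.34 to 0.25). These values describe 10 group means that share the dex contrast and the siNS arrays, and carry no test.

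The rest of the pathway was taken from 7 lists of 105 genes, of which 96 had a probe and 60 were tested. In siNS cells dex raised 10 and lowered 6 of the 60, with a median difference of 0.01 against −0.03 over all genes, and 16.3% of all genes were called. Among the 10 that rose, DCN and SNAI2 lay near the line, and their rises add nothing to that count. The largest rise and the largest fall among the 60 were both in proteins that bind ligands outside the cell.

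Of 12 tested binding proteins and activators, 4 rose and 1 fell in siNS cells. FSTL3, a follistatin relative that also binds activins, rose by 1.49 ± 0.12 (adjusted p = 6.23e-12), and GREM1, a secreted BMP antagonist, fell by 1.27 ± 0.21 (adjusted p = 1.43e-05). DCN, a matrix proteoglycan that binds TGF-beta, rose by 0.64 ± 0.10 (adjusted p = 7.59e-06). It lay near the line, with group means of 4.34 to 5.06, and passed the filter only through its brightest groups. Its rise therefore adds nothing to the count of 4. ITGAV, an integrin chain that takes part in releasing latent TGF-beta, rose by 0.44 ± 0.14 (adjusted p = 0.020). FSTL3 rose and FST fell for every siRNA. The FSTL3 rise ranged from 1.18 in siZNF282 to 1.72 in siCCAR2 cells.

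Among 10 tested receptors, TGFBR3, the co-receptor betaglycan, rose by 0.82 ± 0.09 (adjusted p = 1.64e-08) and BMPR2, a type II receptor of BMPs, fell by 0.42 ± 0.12 (adjusted p = 0.0089), a call lost when only the siNS groups were fitted (adjusted p = 0.081). The GDF15 receptor GFRAL lay below the line in all groups, with means of 4.27 to 4.79, and RET lay around it, at 4.49 to 5.22. Of 3 tested SMADs, SMAD3, which carries TGF-beta and activin signals, fell by 0.98 ± 0.10 (adjusted p = 8.25e-10), and it was lower for all 5 siRNAs. Of 7 other ligands, GDF11 fell by 0.59 ± 0.14 (adjusted p = 0.0017) and BMP2 fell by 0.49 ± 0.15 (adjusted p = 0.018).

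Of 10 intracellular inhibitors, TGIF1, a repressor of SMAD target genes, fell by 0.61 ± 0.08 (adjusted p = 4.52e-07) and none rose. Of 13 target genes, 4 rose and none fell. CCN2, a matricellular protein, rose by 0.93 ± 0.22 (adjusted p = 0.0016), ID1, a BMP target and inhibitor of differentiation, by 0.84 ± 0.14 (adjusted p = 1.01e-05), and SNAI2, which lay near the line, by 0.51 ± 0.13 (adjusted p = 0.0054). With no filter on dim probes another SNAI2 probe stood for the gene and gave 0.11 (adjusted p = 0.70). The group means of SNAI2 were 4.34 to 5.27, and it passed the filter only through its brightest groups. Its rise therefore adds nothing to the count of 4. Of 5 factors known to drive GDF15, KLF4 rose by 0.60 ± 0.18 (adjusted p = 0.019) and none fell. BMP2, ITGAV and KLF4 lost their calls without single arrays (highest adjusted p of 0.063, 0.059 and 0.065).

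**Figure D5:**
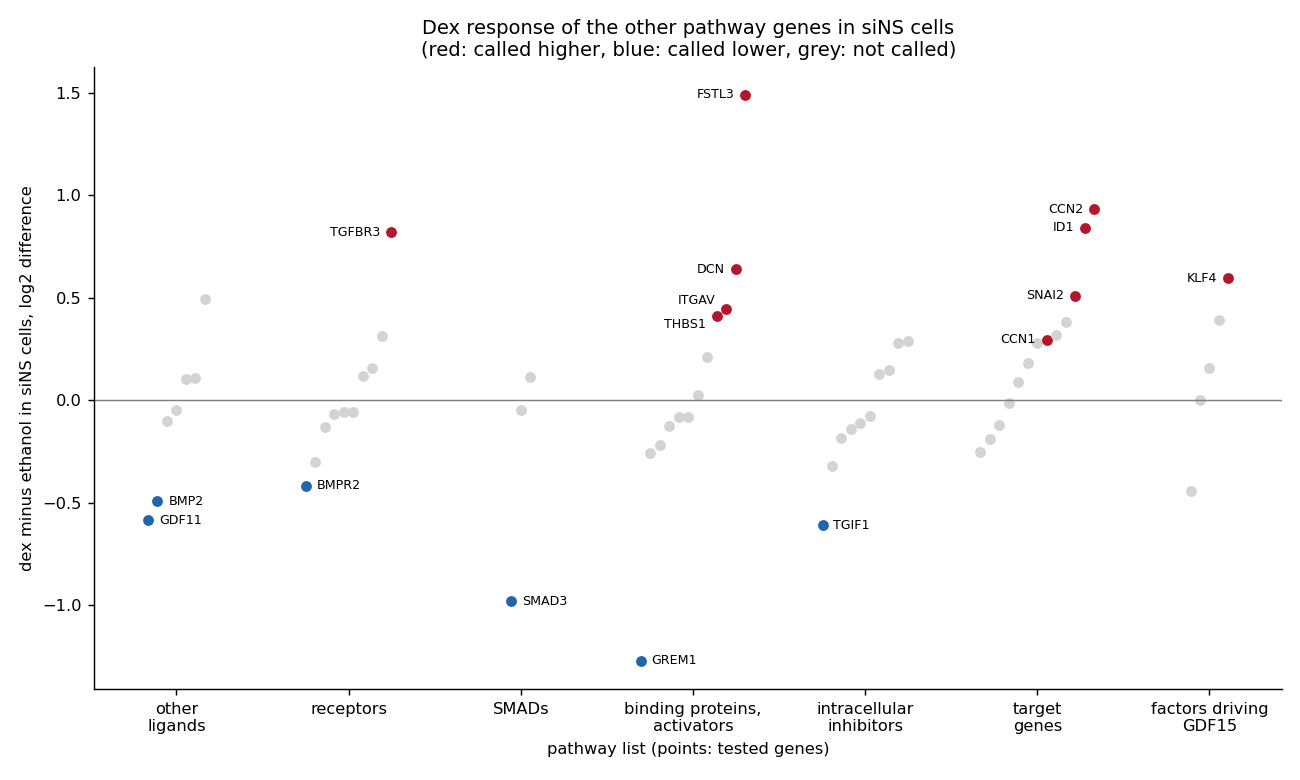
Dex minus ethanol in siNS cells (log2 difference, vertical axis) for the 60 tested pathway genes, grouped by list on the horizontal axis, with called rises in red, called falls in blue and the others in grey. FSTL3 (1.49) and GREM1 (−1.27) mark the ends, both among the extracellular binding proteins.

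Depletion changed levels in the pathway about as often as over all genes in ethanol. There 3 of the 60 were higher and 5 lower in siCCAR1, 6 and 3 with siCoCoA, 9 and 1 with siCCAR2, and 16 and 6 with siZNF282, where 13.8%, 15.5%, 16.2% and 31.6% of all genes were called. In dex the counts were 6 and 12, 11 and 4, 15 and 1, and 19 and 4, against 19%, 20.1%, 18.9% and 30.5% of all genes. In place of 1, 4 were lower with siCCAR2 in dex under a fixed replicate block and 3 under a random block.

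TGFBR2, the type II receptor of TGF-beta, was higher in all 4 depletions in both treatments, from 0.38 in siCCAR2 to 1.07 in siZNF282 cells in ethanol. The siCCAR2 call in ethanol was lost without 1 single array (highest adjusted p = 0.075). The share of all genes higher in all of these comparisons was not computed. TGFBR3 was higher by 1.88 ± 0.13 in siZNF282 cells in ethanol (adjusted p = 3.33e-13). The basement membrane collagen COL4A1 was higher by 2.40 ± 0.18 in siZNF282 (adjusted p = 1.76e-12) and 1.44 ± 0.15 in siCCAR2 cells in ethanol (adjusted p = 2.13e-09). In siCCAR1 cells FSTL3 was lower in ethanol, with a difference of −1.07 ± 0.14 (adjusted p = 7.78e-07), as was the BMP and activin receptor ACVR1, with −1.13 ± 0.10 (adjusted p = 4.51e-10). SMAD5, a BMP-responsive SMAD, was lower in siCoCoA cells in ethanol, with −0.99 ± 0.14 (adjusted p = 2.68e-06).

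Of 5 tested factors known to drive GDF15, 2 were called in siZNF282 cells in ethanol, where 31.6% of all genes were. The stress factor ATF3 was higher by 1.83 ± 0.25 (adjusted p = 6.21e-07) and DDIT3 (CHOP) by 1.53 ± 0.23 (adjusted p = 2.86e-06), while ATF4 (−0.12), EGR1 (0.06) and KLF4 (0.20) were not called. GDF15 was lower there, by a call that single arrays removed, as given above. In siCCAR2 cells ATF3 was higher by 1.14 ± 0.20 in ethanol (adjusted p = 7.11e-05), while GDF15 differed by 0.20 ± 0.25 (adjusted p = 0.66).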

How the data were processed

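The deposited values were log2 intensities of 34469 probes on 40 one-colour Illumina arrays, normalized by the authors. The submitters' processing notes name limma 3.14.4. The steps between scanner values and the deposited log2 values, and the genome build, are not given in the sources used here. Another table of 80 columns was not used, since its columns are named by chip position and no label pairs them with samples.

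The platform annotation gave 1 symbol for 26360 probes and several for 3, and did not list 8106, which name no gene here. Probes with a group mean above 5 in any of the 10 groups were used, 13903 in all. The brightest probe stood for each of the 2672 genes with several, and 10608 genes were tested. A model of 10 group means was fitted to all 40 arrays with limma 3.58.1 in R 4.3.3, with moderated tests (30 residual and 5.86 prior degrees of freedom), Benjamini-Hochberg adjustment over all genes, and a call at an adjusted p under 0.05. There were 18 comparisons and 3 F-tests. The fit was tested on simulated data.

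The genes described, the pathway lists and the markers were chosen with earlier results of these data known. The rule for named pathway genes took, from each list, up to 3 called rises and 3 called falls of the siNS dex response and up to 2 of each sign per depletion, by size, and the most similar genes were the 5 (GDF15) or 2 (each other gene) with the highest correlation. Same-numbered dex and ethanol arrays deviated together (correlations of 0.127 to 0.470, over 0.1 in 20 of 20 pairs), so numbers pair these arrays, and blocking on them changed no dex call of the 6 genes. Against siNS, 19 of 28 pairs passed 0.1 (range −0.022 to 0.391). Of the depletions with 4 pairs, all passed for siCoCoA in dex (0.168 to 0.363) and siCCAR2 in dex (0.128 to 0.391) alone. These comparisons count as paired. Both siZNF282 pairs in dex passed as well (0.153 and 0.135). With 2 pairs that comparison was left unpaired, and its depletion differences with a replicate block are not given here. Alternatives covered normalization, the filter, the choice of probe, the replicate block, intensity trend, array weights, the groups fitted and leaving out each array. Correlations between arrays were 0.948 to 0.993. Promoter windows came from RefSeq.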

Additional observations from a re-analysis of the deposited data

Results flagged for a closer look

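Of 64 groups of 4 to 6 arrays examined, 5 held an array far from the others by Dixon's criterion, and chance flags about 1 in 20 groups. FST was high on array 3 of siNS in ethanol (8.44, with the others at 7.32 to 7.67), on array 3 of siNS in dex (6.89, others 6.03 to 6.26) and on array 3 of siCoCoA in ethanol (9.10, others 8.43 to 8.49). SMAD7 was low on array 5 of siNS in dex (6.18, others 6.73 to 6.96). INHBA was high on array 1 of siCCAR2 in ethanol (4.57, others 4.32 to 4.35), below the line of 5 that the filter uses.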

How the results depend on the processing

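No called difference changed sign, while some that were not called did. Of 1263 results of the 6 genes recomputed under an alternative, 1218 kept their side of the threshold and 28 lost a call, and of 5040 recomputed without 1 array, 4986 kept their side. The cause of the changes below was not tested, beyond the fewer arrays that fitting only the groups compared leaves. The main value follows each count in brackets.

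Fitting only the groups compared called 600 genes for the siCCAR2 dex response (1031), 75 for siZNF282 (657), and 6, 0, 3 and 2 for the differences in dex response in siCCAR1 (11), siCoCoA (1), siCCAR2 (9) and siZNF282 (26). Of the 6 genes it called 1 for the siZNF282 dex response (3), losing FST and TGFB2, 1 for each of siCCAR1, siCCAR2 and siZNF282 in dex (2 each), and 5 in the F-test over siRNAs in ethanol (3). Array weights called 1445 genes for the siCCAR1 dex response (815), 364 for siZNF282 (657), 2492 for siCCAR1 in ethanol (1465), 2050 for siZNF282 in ethanol (3355), and 3 and 2 differences for siCCAR2 (9) and siZNF282 (26). In dex siZNF282 cells 1 of the 6 was called (2) under quantile normalization, no filter, the mean of probes, the intensity trend and array weights, and in siCCAR2 cells 1 (2) under the mean of probes. Genes with a different dex response in siZNF282 cells numbered 17 with no filter, 9 with a line of 6 and 14 with the trend (26), and in siCoCoA cells 0 under quantile normalization or no filter (1). A line of 6 called 5 in the ethanol F-test (3).

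With a fixed replicate block, differences numbered 19 in siCCAR1 (11), 21 in siCCAR2 (9) and 65 in siZNF282 (26), and 81 in the F-test of dex responses (33), and with a random replicate block 16 in siCCAR2, 63 in siZNF282 and 68 in the F-test. Both replicate blocks called 5 of the 6 genes in the ethanol F-test (3), adding GDF15 (adjusted p = 0.0012 fixed, 0.012 random) and TGFB2 (0.014 and 0.021). The fixed replicate block called 2 genes in dex siCoCoA cells (1), adding TGFB2 (−0.48, adjusted p = 0.024), and called TGFB2 in dex siCCAR2 cells (−0.55, adjusted p = 0.010). Pathway counts moved by over 1.5 times mostly in counts of 5 or fewer, and the widest moves were from 7 to 0 risen genes for the siZNF282 dex response (only the groups compared) and from 5 to 11 fallen genes for siCCAR1 in ethanol (array weights).

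Without 1 array, the siZNF282 counts were 343 to 863 genes for the dex response, 1521 to 3434 in ethanol and 1826 to 3289 in dex. Differences numbered 5 to 11 in siCCAR1, 0 to 2 in siCoCoA, 3 to 17 in siCCAR2 and 8 to 261 in siZNF282, and 21 to 168 in their F-test. Of the 6 genes, 1 to 2 were called for siCCAR1 and 1 to 3 for siZNF282 in ethanol, 1 to 2 in dex for siCCAR1, siCoCoA and siZNF282, 1 to 3 for siCCAR2, and 3 to 5 in the ethanol F-test. With 2 siZNF282 arrays per treatment, leaving 1 out rests on the spread of the other groups. Signal near the line limits BMP4, DCN, SNAI2 and the dimmer FST probe.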
